A study of Mus musculus with 3 samples.

Results

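The genes described here code for the secreted and surface-anchored glycoproteins of the tectorial membrane and of related acellular gels of the inner ear, namely *Tecta*, *Tectb*, *Otog*, *Otogl*, *Otoa*, *Ceacam16*, *Strc* and *Otol1*. They were chosen by name, and all 8 symbols occur among the 32285 genes of the count tables. The data were single-cell RNA-seq counts from dissociated mouse cochleae, with 1 library at postnatal day 14 (P14) and 2 libraries at postnatal day 28 (P28). Each library pooled 14 cochleae of 7 mice, which the labels give as C57/B6 (C57BL/6J in the study's methods), untreated as far as the labels say and with no transgene named. The dissection took the sensory epithelium mainly from the upper basal to the apical turns, and kept stria cells, Reissner's membrane and spiral ganglion neurons with it. By the study's methods males and females were bought and paired for breeding, and the sex of the pooled mice is not stated there. The cells of a library were dissociated with collagenase and not sorted. By the study's methods the P28 libraries are biological replicates from separate groups of mice. A p-value below sets a difference between cell classes against its variation from library to library, which in fits with P14 includes age.

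The tectorial membrane is an extracellular sheet that lies over the hair cells and deflects the stereocilia of outer hair cells (OHCs) when the basilar membrane moves. It consists of collagen fibrils in a matrix of alpha-tectorin (*Tecta*) and beta-tectorin (*Tectb*), both with a zona pellucida domain, together with otogelin (*Otog*), otogelin-like (*Otogl*) and the carcinoembryonic antigen-related protein CEACAM16. Otoancorin (*Otoa*) anchors the membrane to the spiral limbus, stereocilin (*Strc*) forms the top connectors between OHC stereocilia and the attachment of the tallest row to the membrane, and otolin-1 (*Otol1*) is a collagen-like protein known from the otoconial membranes. The main tectorial membrane proteins are known to be made by supporting and neighbouring epithelial cells during development.

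On GRCm38 (mm10) the genes occupy separate places, by the GENCODE M21 annotation. *Tecta* (ENSMUSG00000037705) lies at chr9:42329619-42399929 on the minus strand and *Tectb* (ENSMUSG00000024979) at chr19:55180733-55196313 on the plus strand. *Otog* (ENSMUSG00000009487) lies at chr7:46240987-46311434 and *Otoa* (ENSMUSG00000034990) at chr7:121081650-121163097, both on the plus strand, and *Ceacam16* (ENSMUSG00000014686) at chr7:19852097-19861299 on the minus strand. *Otogl* (ENSMUSG00000091455) lies at chr10:107760531-107912134 on the minus strand, *Strc* (ENSMUSG00000033498) at chr2:121363728-121387168 on the minus strand and *Otol1* (ENSMUSG00000027788) at chr3:70007613-70028708 on the plus strand. A gene on the opposite strand overlaps *Strc* (*Ckmt1*), *Ceacam16* (*Gm19345*) and *Tecta* (*Gm47629*). The strand setting of the counting is not given in the sources used here, so reads of these overlaps are uncertain.

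The stretch of 250 bases before the annotated start is shown for 4 genes whose levels differed between the cell classes described below. *Strc* was highest in the class named for OHCs and *Tectb* in that named for Deiters' and pillar cells. *Otog* was high in the classes named for supporting cells. *Otol1* was highest at P14 in the class named for Deiters' and pillar cells. At P28 it was highest in those named for inner phalangeal and border cells and for inner hair cells. The sequences are from RefSeq (GRCm38.p6), read in the direction of transcription, at chr2:121380941-121381190, minus strand for *Strc*, chr19:55180476-55180725, plus strand for *Tectb*, chr7:46240737-46240986, plus strand for *Otog* and chr3:70007363-70007612, plus strand for *Otol1*. Capitals mark the one match to a searched motif.
Strc: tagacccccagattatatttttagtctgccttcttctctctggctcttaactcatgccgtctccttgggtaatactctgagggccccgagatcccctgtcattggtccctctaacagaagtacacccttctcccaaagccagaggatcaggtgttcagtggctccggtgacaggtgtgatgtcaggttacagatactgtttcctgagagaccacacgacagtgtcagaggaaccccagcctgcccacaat
Tectb: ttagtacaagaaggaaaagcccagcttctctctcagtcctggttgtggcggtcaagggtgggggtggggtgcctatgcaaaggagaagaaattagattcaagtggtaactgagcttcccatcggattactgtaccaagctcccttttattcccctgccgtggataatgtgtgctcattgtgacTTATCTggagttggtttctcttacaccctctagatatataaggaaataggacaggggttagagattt
Otog: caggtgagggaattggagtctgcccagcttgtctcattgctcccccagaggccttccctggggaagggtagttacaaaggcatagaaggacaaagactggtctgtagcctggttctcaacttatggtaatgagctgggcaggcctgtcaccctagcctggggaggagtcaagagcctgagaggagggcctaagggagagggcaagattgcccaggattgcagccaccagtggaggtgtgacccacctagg
Otol1: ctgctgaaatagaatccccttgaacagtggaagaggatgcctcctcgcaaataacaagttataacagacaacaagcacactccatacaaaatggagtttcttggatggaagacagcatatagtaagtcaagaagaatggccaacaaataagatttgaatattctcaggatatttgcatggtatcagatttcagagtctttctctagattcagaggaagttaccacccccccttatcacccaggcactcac

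The table of start sites matched 6 of the 8 genes, and *Otogl* and *Ceacam16* are named only. On both strands 4 motifs were searched, of which none contains another. The TATA box TATAAA was found in 12.4% of 32851 mouse promoters of the same length. The SOX-type motif AACAAT was found in 9.42%, the GATA-type motif AGATAA in 9.99% and the E-box CAGCTG, which reads the same on both strands, in 13.0%. Among the 6 genes the search gave 1 match, AGATAA read on the other strand, which is the run in capitals in *Tectb*, 67 bases before the start. The *Strc* window lies inside the longer *Strc* interval of GENCODE given above, because the RefSeq start is further downstream.

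Of 2513 barcodes at P14 and 11948 and 18196 at P28, the filter of 200 to 6000 genes and at most 15% mitochondrial UMIs kept 1662, 5651 and 7065 cells, with 7432047, 24596587 and 23300859 UMIs. Their median was 2477, 2421 and 2037 UMIs per cell. At P28 50.1% and 59.2% of the barcodes were over the mitochondrial limit, against 19.8% at P14. Libraries shared 4 to 10 kept barcodes in each pair. Clusters were named from fixed markers, and "-like" marks that the names rest on markers and not on anatomy. The classes were OHC-like (277, 365 and 284 cells), inner hair cell (IHC)-like (60, 113 and 76), Deiters' and pillar cell (DC/PC)-like (69, 73 and 42), and inner phalangeal and border cell (IPhC/IB)-like (285 and 340, named only at P28). Inner sulcus, Hensen and outer sulcus cells formed the ISC/HeC/OSC-like class (151, 428 and 435) and Reissner's membrane cells the RM-like class (40, 429 and 423). An unnamed group led by *Ucma* and *Epyc* or *Tdrd12* is called the Ucma cluster (335, 457 and 440 cells). Another, led by *Tcap*, *Slc26a4* and *Zmynd12* and seen only at P28, is called the Tcap cluster (183 and 358 cells). The genes described here and the related lists were left out of the genes used for clustering.

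Some names need a limit. The 9 DC/PC markers summed to 14748, 19661 and 16978 CPM (UMIs of a gene or list scaled to a common total of UMIs of the class) in DC/PC-like cells, and to more in ISC/HeC/OSC-like cells (24278, 35378 and 30294 CPM) and in the Ucma cluster (27571, 43743 and 36341 CPM). Most of each sum was *S100a1*. *Fgfr3*, at 257, 499 and 490 CPM in DC/PC-like cells, stood at 21.4, 22.9 and 34.7 CPM in ISC/HeC/OSC-like cells and at most 3.6 CPM in the Ucma cluster. The 7 ISC/HeC/OSC markers likewise summed to more in the Ucma cluster (5864, 5137 and 4522 CPM) than in the class named from them (4638, 3585 and 3425 CPM). In the P14 DC/PC-like class the 6 IPhC/IB markers summed to 1757 CPM, and in the P28 DC/PC-like class to 884 and 917 CPM. *Matn4* was at 0 at P14 and in P28 replicate 2. *Slc1a3*, a glutamate transporter of the cells that surround IHCs, gave 528 CPM in the P14 class, and 71.7 and 118 CPM at P28. The P14 class therefore holds cells with markers of both types, and P14 values of DC/PC-like cells are set below beside both P28 classes.

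The 8 genes were very unequal in detection. Over all kept cells in P14, P28 replicate 1 and P28 replicate 2, *Ceacam16* gave 1611, 11303 and 11891 UMIs and *Otog* 375, 2657 and 2109. *Otogl* gave 366, 1834 and 1305 UMIs, *Strc* 751, 1326 and 724, *Tectb* 774, 525 and 148, and *Otoa* 137, 547 and 634. *Otol1* gave 253, 61 and 61. *Tecta* gave 4, 10 and 11 UMIs, never more than 1 in a cell, so its level by class was not detectable at this depth. Macrophage-like cells, which should make none of these proteins, give a background level, as plotted for each gene by class and library. Background varied between classes, and levels of other such classes are given below for *Otog* and *Ceacam16*.

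**Figure D1:**
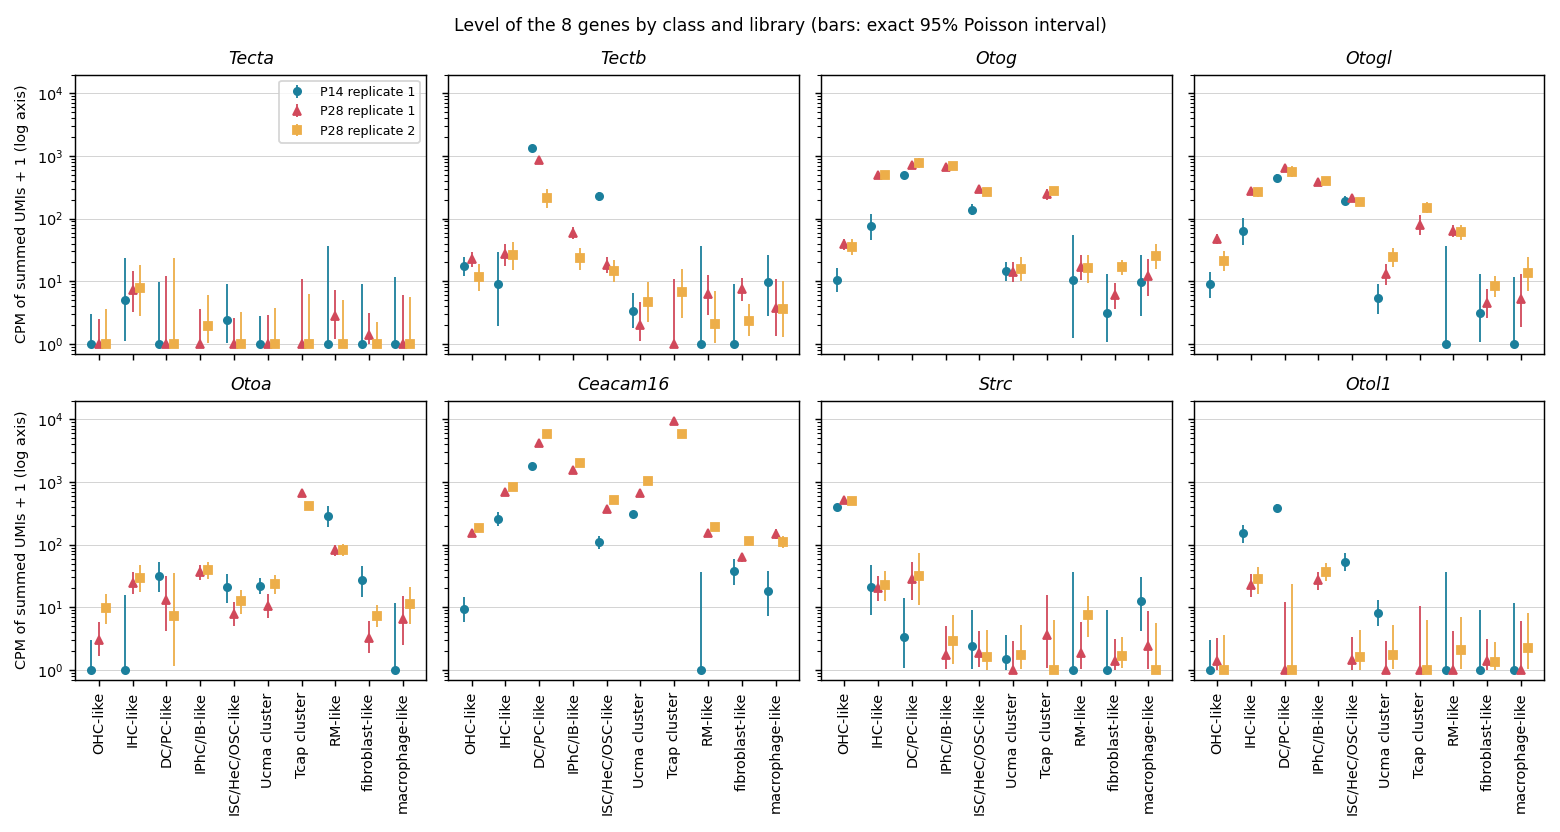
Level of each of the 8 genes (CPM of the summed UMIs plus 1, log axis) in 10 cell classes, with a point for each library and exact 95% Poisson intervals. *Strc* stands out in OHC-like cells at 392 to 517 CPM, *Otog* and *Otogl* in the named supporting classes, *Ceacam16* and *Otoa* in the Tcap cluster, and *Tecta* is near 0 in every class drawn.

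*Strc* was the gene of OHC-like cells. In P14, P28 replicate 1 and P28 replicate 2 its level there was 392, 517 and 494 CPM, and it was detected in 83.4%, 90.7% and 81.3% of the cells. The P14 counting interval of 364 to 422 CPM lay below those of both P28 libraries, and in each of the 5 OHC-like clusters the level lay between 387 and 598 CPM. After thinning to 1000 UMIs per cell, 32.7%, 39.4% and 37.7% of OHC-like cells held a *Strc* UMI. Of all kept *Strc* UMIs, 98.0%, 96.3% and 94.6% lay in OHC-like cells. IHC-like cells, whose stereocilia do not attach to the tectorial membrane as those of OHCs do, held 19.8, 19.6 and 21.9 CPM. The P14 value rests on 5 UMIs, and its counting interval of 6.43 to 46.2 CPM overlapped that of macrophage-like cells (11.4 CPM, 3.11 to 29.2). At P28 macrophage-like cells held 0 to 1.38 CPM, with intervals below the IHC-like ones. The OHC markers summed to 38071, 23627 and 23787 CPM in OHC-like cells and still to 1941, 1824 and 1838 CPM in IHC-like ones, and their part in the *Strc* of IHC-like cells was not tested. IPhC/IB-like cells held 1 and 2 *Strc* UMIs. Over both P28 libraries the level in OHC-like cells was 421 times that in IPhC/IB-like cells, with a counting interval of 144 to 2043.

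*Tectb* stood highest in DC/PC-like cells. The P14 level there was 1349 CPM, the P28 levels were 857 and 211 CPM, and 24.6%, 45.2% and 16.7% of the cells held a UMI. The P28 libraries differed from each other by more than their counting intervals of 761 to 962 and 146 to 295 CPM. ISC/HeC/OSC-like cells came next at P14 with 225 CPM in 11.9% of cells, and at P28 they held 17.3 and 13.8 CPM. IPhC/IB-like cells held 57.3 and 22.1 CPM at P28, below both DC/PC-like values. Macrophage-like cells held 8.57, 2.76 and 2.54 CPM.

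The *Tectb* level of a class rested on few cells. At P14, 6 of the 69 DC/PC-like cells held 541 of the 572 UMIs (94.6%), and the highest single cell held 256. At P28 7 of 73 cells held 157 of 287 UMIs in replicate 1, and 1 of 42 cells held 17 of 34 in replicate 2. Without the cells that held more than 10 *Tectb* UMIs the levels were 89.9, 452 and 107 CPM, so the order of the libraries turned. The 6 P14 cells were deep, with a median of 11450.5 UMIs against 2909 in the other 63. In these cells *Fgfr3*, a receptor of pillar and Deiters' cells, was found in 100% and *Slc1a3* in 33.3%, against 27.0% and 69.8% of the others. The *Otog* level of these 6 cells was 633 CPM against 455 in the rest. *Ceacam16* was 215 against 2174 CPM and *Otol1* 12.7 against 470 CPM. Of the other DC/PC markers, *Prox1* and *Emid1* were higher in them by CPM, and *S100a1*, *Pdzk1ip1*, *Cd44*, *Npy*, *Smagp* and *Sox2* were not. At P28 *Fgfr3* was lower in cells over 10 *Tectb* UMIs, at 381 against 518 and 0 against 496 CPM in replicates 1 and 2. *Slc1a3* was higher there, at 170 against 55.6 and 942 against 107 CPM, with 1 such cell in replicate 2.

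**Figure D2:**
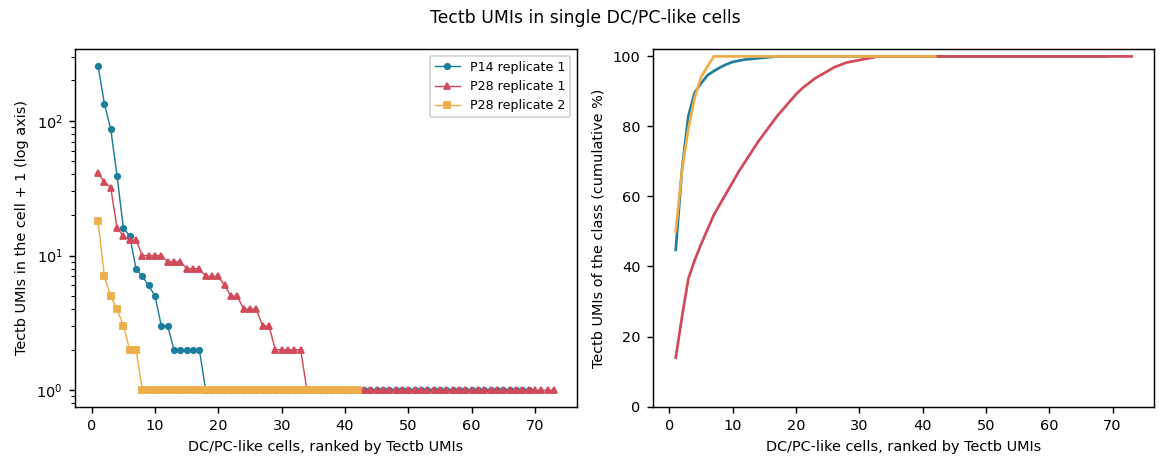
*Tectb* UMIs of single DC/PC-like cells ranked from high to low (left, UMIs plus 1 on a log axis) and their cumulative share of the class (right, %), for the 3 libraries. At P14 the first 6 of 69 cells carry 94.6% of the UMIs, and the P28 replicate 1 curve climbs more slowly.

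*Tecta*, the partner of *Tectb* in the striated matrix, was close to absent from every class. IHC-like cells held 1, 6 and 4 of its UMIs, TBC-like cells (tympanic border cells) held 4 in P28 replicate 2, and each other class held at most 2 in a library. In DC/PC-like cells 0 UMIs were counted in the 3 libraries, which for P14 allows up to 8.70 CPM by the exact Poisson limit.

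*Otog* and *Otogl*, a pair of large mucin-like glycoproteins, were found in each of the named supporting classes. The Ucma cluster, which also carried markers of these classes, held *Otog* only at 13.4 CPM at P14 and 13.2 to 15.0 CPM at P28. *Otog* stood at 488, 720 and 781 CPM in DC/PC-like cells of the 3 libraries, where 59.4%, 84.9% and 85.7% of the cells held a UMI. It stood at 658 and 704 CPM in IPhC/IB-like cells, with counting intervals that overlapped those of DC/PC-like cells. ISC/HeC/OSC-like cells came lower with 138, 294 and 268 CPM, near the Tcap cluster with 244 and 275. OHC-like cells held 9.59, 37.7 and 34.6 CPM, and macrophage-like cells 8.57 to 24.1 CPM in 2.41% to 4.82% of the cells. OHC-like cells were thus below every named supporting class. Their counting interval overlapped that of macrophage-like cells at P14 and in P28 replicate 2 and lay above it in P28 replicate 1, where the UMIs came from 29 of 365 cells. At P28 red blood cell-like cells held *Otog* at 25.7 to 33.5 CPM, with intervals that overlapped those of OHC-like cells. Schwann and satellite glial cell (SC/SGC)-like cells held 32.7 to 37.9 CPM, and TBC-like cells less, at 4.15 to 7.97 CPM.

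*Otogl* followed the same order. DC/PC-like cells held 448, 648 and 564 CPM, IPhC/IB-like cells 389 and 395, and ISC/HeC/OSC-like cells 192, 214 and 186. At P28 the DC/PC-like intervals did not overlap those of IPhC/IB-like cells, in contrast to *Otog*. Macrophage-like cells held 0, 4.14 and 12.7 CPM, and the Ucma cluster 4.31 CPM at P14 and 12.2 to 23.2 CPM at P28. In RM-like cells the *Otogl* level at P28 came from 1 of the 2 clusters. P28 cluster 16 held *Otogl* at 211 and 172 CPM, in 13.2% and 17.1% of its cells, and *Otog* at 16.0 and 19.5 CPM, near the macrophage-like range. P28 cluster 6 held *Otogl* at 7.18 and 3.21 CPM.

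In the organ of Corti the pair was usually counted in the same cells. Of DC/PC-like cells with an *Otog* UMI, 80.5%, 69.4% and 72.2% also held an *Otogl* UMI, against 35.7%, 18.2% and 33.3% of those without. In IPhC/IB-like cells the shares were 70.8% and 65.2% against 39.4% and 39.6%. A deeper cell holds more UMIs of every gene, and the part of depth in these shares was not tested. In the Tcap cluster the shares ran the other way, with *Otogl* in 5.08% and 4.46% of the cells with *Otog* and in 8.06% and 16.7% of those without.

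ISC/HeC/OSC-like cells of P28 fell into 2 clusters with opposite levels of these genes. Cluster 18, led by *Lockd*, *Pcdh17* and *S100a13*, had 112 and 106 cells and held *Otog* at 467 and 447 CPM, *Otogl* at 348 and 314 CPM and *Ceacam16* at 62.2 and 68.4 CPM. Cluster 4, led by *Epyc*, *Prss36* and *Mia*, had 316 and 329 cells and held *Otog* at 106 and 118 CPM, *Otogl* at 68.6 and 79.2 CPM and *Ceacam16* at 695 and 908 CPM. *Otog* and *Otogl* were thus the higher in cluster 18 in both libraries, and *Ceacam16* the higher in cluster 4.

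IHC-like cells also held *Otog*, at 75.3, 499 and 499 CPM, and *Otogl*, at 63.4, 277 and 264 CPM. These UMIs went with *Slc1a3* and *Sox2* of the IPhC/IB markers. *Sox2* is on the DC/PC list too and stood at 263 and 192 CPM in DC/PC-like cells of P28, so it does not single out the cells around IHCs. *Matn4*, *Defb25* and *Gjb6* of the IPhC/IB list were not split in this way. The IHC-like cells with an *Otog* UMI numbered 8 of 60, 75 of 113 and 56 of 76. Among them *Slc1a3* was found in 7 of 8 cells, 98.7% and 98.2%, against 6 of 52 cells, 26.3% and 20% of those without *Otog*. *Sox2*, a transcription factor of supporting cells, was found in 85.3% and 82.1% against 7.89% and 10% at P28. *Fabp7* of the same list did not follow in P28 replicate 1, at 4.67 CPM with *Otog* against 8.83 CPM without. At P14 it stood at 44.9 against 6.12 CPM, from 4 and 1 UMIs. The 2 groups were of unequal depth, with medians of 10865.5, 11180 and 9184.5 UMIs against 981.5, 1210 and 2710.5. At 1000 UMIs per cell the *Slc1a3* shares at P28 were 57.3% and 62.5% against 8.33% and 0%. The *Sox2* shares in P28 replicate 1 were then 21.3% against 4.17%.

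The level of *Otof* was lower in the cells with *Otog*. This gene, which codes for the synaptic protein otoferlin, stood at 2840 and 2749 CPM at P28 in IHC-like cells with *Otog* and at 4599 and 4175 CPM in those without. *Slc17a8*, the vesicular glutamate transporter of IHCs, stood at 1640 and 1839 CPM with *Otog* and at 1986 and 1939 CPM without. At 1000 UMIs per cell *Slc17a8* was found in 77.3% and 83.9% of the cells with *Otog* against 54.2% and 62.5%, and *Otof* in 90.7% and 92.9% against 100% and 87.5%, so the shares did not follow the levels. The 6 IPhC/IB markers summed in IHC-like cells to 887, 1930 and 1786 CPM, of which *Matn4* gave 0, 0 and 1.68 CPM. The same sum was 3451 and 3482 CPM in IPhC/IB-like cells and 51.4, 301 and 419 CPM in macrophage-like cells. The median doublet score was 0.0525, 0.0459 and 0.0666 with *Otog* and 0.0163, 0.0597 and 0.0479 without. The part of attached or co-captured supporting cells in the *Otog*, *Otogl* and *Otol1* of IHC-like cells was not tested, and each IHC-like value below carries these markers with it.

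**Figure D3:**
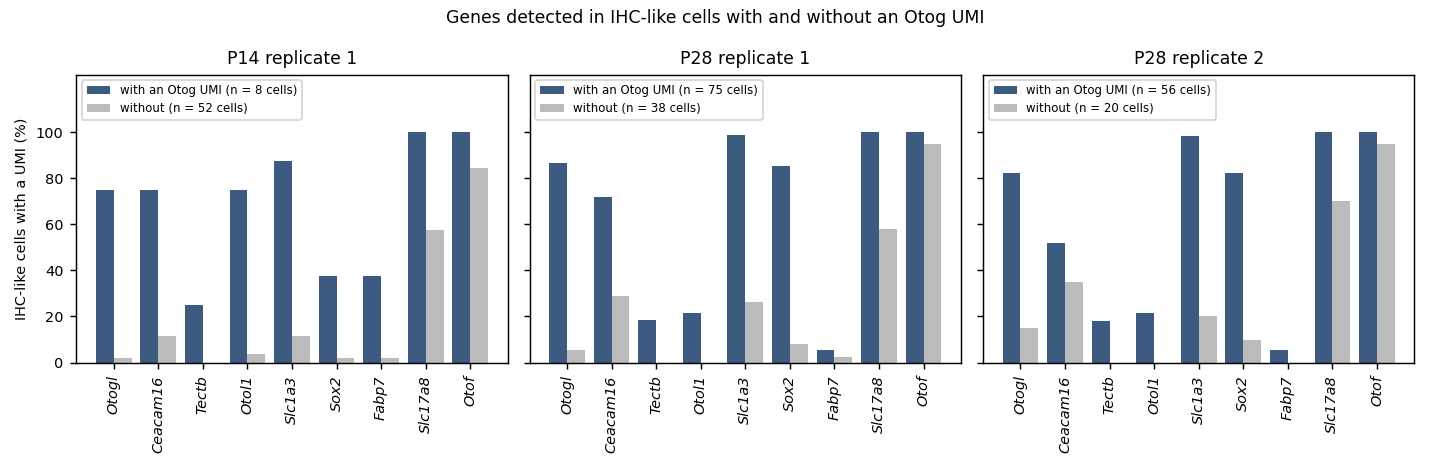
Share of IHC-like cells (%) that held a UMI of each gene, for cells with and without an *Otog* UMI, in the 3 libraries. *Slc1a3* at P28 reaches 98.7% and 98.2% with *Otog* and 26.3% and 20% without, while the IHC genes *Slc17a8* and *Otof* are found in 100% of the cells with *Otog*.

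*Ceacam16*, a secreted protein of the adult tectorial membrane, had its highest level in the Tcap cluster, with 9291 and 5856 CPM in 89.6% and 77.4% of the cells at P28. DC/PC-like cells held 1809, 4140 and 5820 CPM, so the Tcap cluster stood above them in P28 replicate 1, while in P28 replicate 2 the counting intervals of the pair overlapped. IPhC/IB-like cells held 1532 and 2042 CPM, the Ucma cluster 311, 666 and 1036 CPM, IHC-like cells 258, 686 and 836 CPM and ISC/HeC/OSC-like cells 108, 366 and 525 CPM. The gene was also counted where it should be lacking. Macrophage-like cells held 17.1, 149 and 110 CPM, with a UMI in 7.89%, 17.3% and 14.5% of the cells. Red blood cell-like cells held 9.64 CPM at P14 and 283 to 329 CPM at P28. SC/SGC-like cells of P28 held 152 to 458 CPM, and TBC-like cells 48.2 to 71.5 CPM. OHC-like cells held 8.53, 154 and 182 CPM, at P28 below the red blood cell-like range and above the TBC-like one. At 1000 UMIs per cell 4.96% and 10.9% of OHC-like and 7.80% and 9.52% of macrophage-like cells of P28 held a *Ceacam16* UMI. The OHC-like counting interval overlapped the macrophage-like one at P14 and in P28 replicate 1 and lay above it in P28 replicate 2. A few cells carried much of it, with 65.4% and 51.8% of the OHC-like UMIs of P28 in 8 and 6 cells. OHC-like cells with an *Otog* UMI held *Ceacam16* at 807 and 775 CPM at P28 and those without at 46.3 and 109 CPM, and *Sox2* was found in 37.9% and 20% of the former and in 2.68% and 3.03% of the latter. In P28 replicate 1 the former had a median doublet score of 0.0597 and a median depth of 11659 UMIs, the latter 0.0122 and 5199.5. At P14 the median scores were 0.341 in 3 cells with *Otog* and 0.0199 in those without. The part of supporting cell RNA, doublets or depth in these values was not tested.

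*Otoa*, which codes for the protein that fixes the tectorial membrane to the limbus, was likewise highest in the Tcap cluster at P28, with 666 and 419 CPM in 61.2% and 43.0% of the cells. The cluster held 46.4% and 45.4% of all kept *Otoa* UMIs. At P14, where that cluster was not found, RM-like cells held most per UMI, with 285 CPM in 32.5% of 40 cells. RM-like cells of P28 held 81.0 and 82.6 CPM in 15.4% and 14.7% of the cells. IPhC/IB-like cells held 35.1 and 37.8 CPM and macrophage-like cells 0, 5.52 and 10.2 CPM. By UMI count, the Ucma cluster held 44 of the 137 *Otoa* UMIs of P14, at 21.1 CPM.

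*Otol1*, the collagen-like otolin gene, was a P14 signal for the most part. DC/PC-like cells of P14 held 384 CPM (163 UMIs in 33 of 69 cells), IHC-like cells 151 CPM and ISC/HeC/OSC-like cells 52.7 CPM, and the P14 OHC-like and macrophage-like sums held none. At P28 the DC/PC-like class held 0 UMIs in 73 and 42 cells, which in replicate 2 allows up to 22.9 CPM. The signal then lay in IPhC/IB-like cells with 25.8 and 35.9 CPM and IHC-like cells with 21.7 and 26.9 CPM. Of the *Otol1* UMIs of the P28 libraries, 59.0% and 63.9% were in IPhC/IB-like cells and 34.4% and 26.2% in IHC-like cells. At P28 IPhC/IB-like and IHC-like levels overlapped. All 16 and 12 IHC-like cells of P28 with an *Otol1* UMI also held an *Otog* UMI. The cells with *Otog* were 75 of 113 and 56 of 76 of the class and the deeper ones. The part of depth in this overlap was not tested.

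Within the P14 DC/PC-like class *Otol1* went with the markers of the IHC-facing cells. The 33 cells with an *Otol1* UMI held *Slc1a3* in 93.9% and *Fgfr3* in 6.06%, and the 36 cells without it held *Slc1a3* in 41.7% and *Fgfr3* in 58.3%. The groups were of like depth, with medians of 3030 and 2719.5 UMIs. *Tectb* was found in equal shares of both, 24.2% and 25%. Its level of 190 CPM with *Otol1* and 2286 CPM without rests on the 6 cells described above, of which 1 held an *Otol1* UMI. *Ceacam16* stood at 1093 and 2388 CPM. *Otog* differed less, at 422 and 542 CPM.

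To ask in which cells the genes are made, classes of the same libraries were compared on summed UMIs, with edgeR's quasi-likelihood test, a term for the library and Benjamini-Hochberg adjustment over all genes tested. The plot of the fitted fold changes gathers these 5 comparisons. *Tecta* was too low to be tested in any of them.

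**Figure D4:**
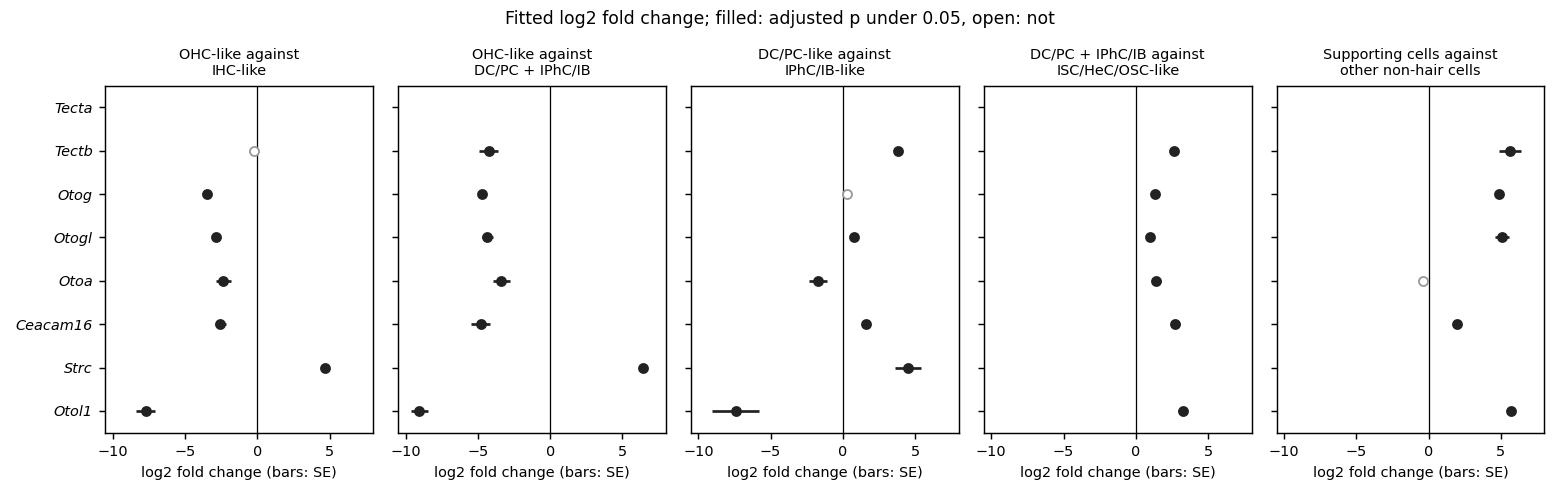
Fitted log2 fold changes (bars, SE) of the 8 genes in 5 comparisons of cell classes, filled where the adjusted p is under 0.05. *Strc* is the single gene above 0 in the first and second panels, and the 6 genes drawn in the fourth panel lie above 0.

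Epithelial supporting cells (DC/PC-like, IPhC/IB-like and ISC/HeC/OSC-like) were first set against the other cells that were not hair cells. At P14 the supporting side held no IPhC/IB-like class. Of the 6 genes tested, 5 were higher in supporting cells, where of 12953 genes 34.5% were called in either direction, 14.3% higher and 20.2% lower. *Otog* was higher by 4.83 ± 0.22 (log2, SE, adjusted p = 0.0013), *Otogl* by 5.07 ± 0.49 (0.0030), *Tectb* by 5.64 ± 0.76 (0.0059) and *Otol1* by 5.70 ± 0.22 (0.0010). *Ceacam16* was higher by 1.95 ± 0.15 (adjusted p = 0.0020), although the other side held the Tcap and Ucma clusters. *Otoa* differed by -0.38 ± 0.15 (adjusted p = 0.10), and by 0.47 (adjusted p = 0.23) when those unnamed clusters were left out.

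The organ of Corti supporting cells (DC/PC-like plus IPhC/IB-like) were then set against the ISC/HeC/OSC-like class beside them. At P14 the former side was the 69 DC/PC-like cells only. At P28 285 of its 358 cells and 340 of its 382 cells were IPhC/IB-like. The libraries thus differed in the make-up of this side, and age goes with that difference. All 6 genes tested were higher in the organ of Corti classes, where of 10192 genes 21.5% were called, 11.4% higher and 10.1% lower. The differences were 2.72 ± 0.32 for *Ceacam16* (adjusted p = 0.00015), 2.61 ± 0.28 for *Tectb* (7.6e-05), 3.24 ± 0.32 for *Otol1* (5.1e-05), 1.30 ± 0.19 for *Otog* (0.00055) and 0.99 ± 0.16 for *Otogl* (0.0012). *Otoa* was higher by 1.42 ± 0.29 (adjusted p = 0.0058), a call from 108 against 49 UMIs that was lost without P28 replicate 1 (adjusted p = 0.11) and in DESeq2 (0.058). Without the library term *Tectb* (adjusted p = 0.31), *Otol1* (0.27) and *Otoa* (0.056) also lost the call. The summed ISC/HeC/OSC-like class hid the cluster 18 cells, whose *Otogl* level at 348 and 314 CPM was close to that of IPhC/IB-like cells at 389 and 395 CPM.

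DC/PC-like cells were compared with IPhC/IB-like cells in the 2 P28 libraries. This fit had 1 residual degree of freedom, so its p-values rest on a spread estimated over all genes, and DESeq2 values are given beside them. *Tectb* was higher in DC/PC-like cells by 3.83 ± 0.20 (adjusted p = 1.1e-78, DESeq2 3.1e-25) and *Ceacam16* by 1.58 ± 0.08 (6.7e-85, DESeq2 8.5e-41). *Otogl* was higher by 0.74 ± 0.14 (2.8e-06, DESeq2 0.04998) and *Otog* differed by 0.24 ± 0.13 (adjusted p = 0.19). *Otoa* was lower by 1.73 on the log2 scale (adjusted p = 0.025), with 5 against 90 UMIs and a DESeq2 adjusted p of 0.83. *Otol1* had 0 against 75 UMIs (edgeR adjusted p = 7.5e-05, DESeq2 0.999), and IPhC/IB-like cells held 30.2 CPM over both libraries against a floor of 6.05 CPM (3 counts) for DC/PC-like cells. *Strc* had 14 UMIs in 5 DC/PC-like cells against 3 in IPhC/IB-like cells (adjusted p = 1.2e-05, DESeq2 0.034), and the OHC markers summed to 1207 and 992 CPM in these DC/PC-like cells against 412 and 454 CPM in IPhC/IB-like cells. In all, 4 of 7 genes tested were higher and 2 lower, where 17% of 8346 genes were called, 8.95% higher and 8.09% lower.

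OHC-like cells were compared with these supporting cells and with IHC-like cells. At P14 the supporting side was again DC/PC-like cells only. Against DC/PC-like plus IPhC/IB-like cells 1 of the 7 genes tested was higher and 6 were lower, where 52% of 10548 genes were called, 23.4% higher and 28.6% lower. *Strc* was higher by 6.45 ± 0.25 (adjusted p = 1.9e-06), *Ceacam16* differed by -4.79 ± 0.65 (0.00033), *Otog* by -4.70 ± 0.28 (4.0e-06), *Otogl* by -4.34 ± 0.39 (2.9e-05), *Tectb* by -4.24 ± 0.66 (0.00067) and *Otoa* by -3.39 ± 0.59 (0.0013). *Otol1* had 1 UMI in OHC-like cells of the 3 libraries, and in P14 the DC/PC-like level was at least 240-fold higher than in OHC-like cells against a floor of 3 counts.

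Against IHC-like cells 1 of 7 genes was higher in OHC-like cells and 5 were lower, where 34% of 9500 genes were called, 16.8% higher and 17.2% lower. *Strc* was higher by 4.70 ± 0.20 (adjusted p = 5.9e-07). *Otog* differed by -3.51 ± 0.20 (adjusted p = 1.9e-06), *Otogl* by -2.85 ± 0.23 (1.4e-05), *Ceacam16* by -2.56 ± 0.39 (0.00067) and *Otoa* by -2.34 ± 0.53 (0.0086). The *Otoa* call rests on 17 against 40 UMIs at P28, with 0 in both classes at P14. Its OHC-like level at P28 was 2.03 to 8.65 CPM, near the macrophage-like 5.52 to 10.2 CPM. *Ceacam16* and *Otoa* lost the call without the library term (adjusted p = 0.12 and 0.13). *Otol1* was at least 94.1-fold and 12.4-fold higher in IHC-like cells of P14 and P28 replicate 2, and by 53.5 times (8.60 to 2213) in P28 replicate 1. These lower values in OHC-like cells go with the IPhC/IB markers of the IHC-like class given above. *Tectb* differed by -0.24 ± 0.36 (adjusted p = 0.65).

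Because P14 had 1 library, its difference from P28 is given as values with no test, and age also goes with the mitochondrial share and the summed UMIs of the libraries. The median UMIs per kept cell (2477, 2421 and 2037) differed more between the P28 libraries than between P14 and P28 replicate 1. In some classes, such as the IHC-like one, depth per cell did go with age. In each class where a gene was at 100 CPM or more and at 10% or more of its highest class at an age, the levels at both ages are plotted. *Strc* in OHC-like cells went from 392 CPM to 494 and 517 CPM, a log2 difference of 0.37. *Tectb* was lower at P28 in ISC/HeC/OSC-like cells by 3.77 log2 units (225 against 13.8 to 17.3 CPM). The P14 value rests on 18 of 151 cells, and 7 cells held 122 of its 158 UMIs (77.2%). *Ceacam16* was 2.74 times its P14 level at P28 in the Ucma cluster and 2.75 times in DC/PC-like cells. It also stood higher at P28 in macrophage-like cells (17.1 against 110 to 149 CPM) and in red blood cell-like cells (9.64 against 283 to 329 CPM). *Otoa* in RM-like cells had 285 CPM in the 40 cells of P14 and 81.0 and 82.6 CPM later.

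**Figure D5:**
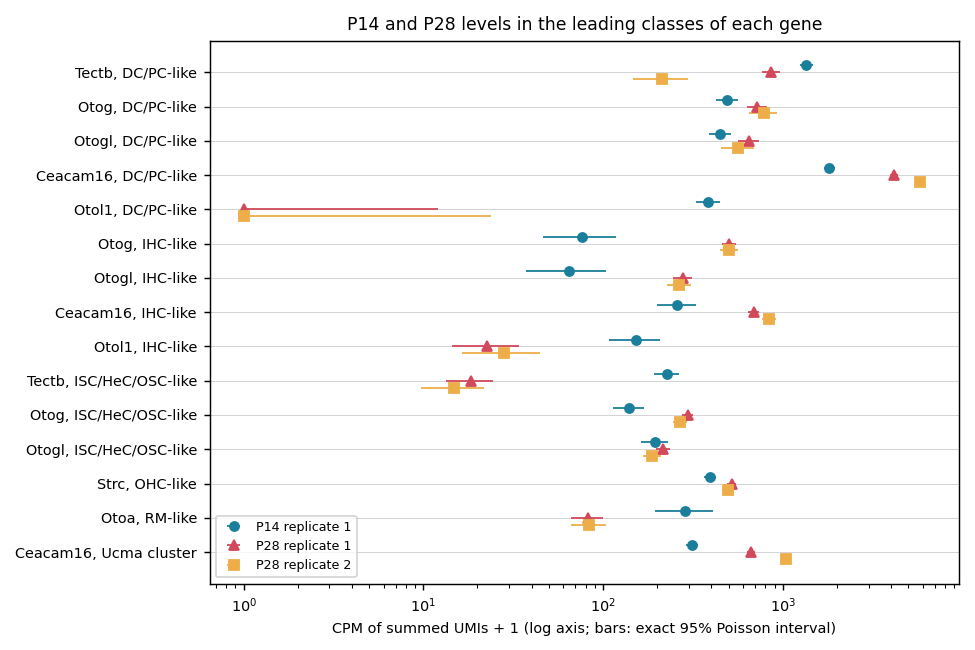
Level (CPM plus 1, log axis, exact 95% Poisson intervals) of each gene in its leading classes in the P14 library and both P28 libraries. *Otol1* in DC/PC-like cells lies at 384 CPM at P14 and at 0 at P28, and *Tectb* in ISC/HeC/OSC-like cells lies at 225 CPM at P14 and at 13.8 to 17.3 CPM at P28. The 225 CPM rest on 18 of 151 cells.

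In the organ of Corti the age comparison depends on which P28 class is set beside the P14 one. *Otol1* in DC/PC-like cells was at least 63.6-fold lower at P28 against a floor of 3 counts over both P28 libraries. Set against DC/PC-like and IPhC/IB-like cells together, its P14 level of 384 CPM (interval 328 to 448) stood beside 20.8 and 31.3 CPM. *Tectb*, at 1349 CPM in P14, had 212 and 46.5 CPM in the joined P28 classes, but the P14 value rests on 6 cells. *Otog* was 488 CPM and then 670 and 714, *Ceacam16* 1809 and then 2036 and 2531, and *Otogl* 448 and then 439 and 417 CPM. For *Otogl* the P28 values thus lay within the P14 counting interval of 387 to 517 CPM. In IHC-like cells the P14 level of *Otog* was 75.3 CPM and both P28 libraries had 499 CPM. The share of IHC-like cells with *Otog* was 13.3% and then 66.4% and 73.7%, which went with the median depth of the class (1025.5, 9310 and 8007.5 UMIs).

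Related genes were taken from lists of the tectorial membrane collagens, the stereocilia links and surface coat, other zona pellucida domain genes, mesothelin relatives, mucins and otoconial genes. Of the 8 collagens, 6 were tested between organ of Corti supporting cells and ISC/HeC/OSC-like cells, and 5 were lower in the former, opposite to the 6 glycoprotein genes (10.1% of all genes tested were lower, and the list median was -1.12 against 0.02 log2 units over all genes). *Col2a1*, the main fibril collagen of cartilage and of the tectorial membrane, differed by -1.97 ± 0.25 (adjusted p = 0.00023) and *Col11a1* by -1.24 ± 0.16 (0.00026). Between OHC-like cells and these supporting cells the list went as the glycoproteins did. Here 5 of 6 collagens tested were lower in OHC-like cells, where 28.6% of all genes tested were lower. *Col9a3* at -3.38 ± 0.27 (adjusted p = 1.6e-05) was among these 5, and *Col2a1* was not.

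The stereocilia genes went with *Strc*. Of 10 tested, 9 were higher in OHC-like cells than in DC/PC-like plus IPhC/IB-like cells (list median 5.84 against -0.06 log2 units over all genes, of which 23.4% were higher), among them *Cdh23*, the upper part of the tip link, by 6.18 ± 0.32 (adjusted p = 2.7e-06), *Ptprq* by 7.13 ± 0.40 (3.3e-06) and *Tub*, a partner of stereocilin in the attachment to the tectorial membrane, by 7.62 ± 0.46 (4.3e-06). *Ptprq* and *Tub* had 2 and 1 UMIs in the supporting cells, so these fitted values depend on the prior count. Against IHC-like cells 5 of 11 were higher and 2 lower, where 16.8% and 17.2% of all genes were, so the share of lower ones was near the background. *Tub* was higher by 2.99 ± 0.27 (adjusted p = 2.6e-05), *Tmem145* by 2.41 ± 0.29 (0.00016) and *Pdzd7* by 3.19 ± 0.41 (0.00025). *Whrn*, a scaffold of the stereocilium tip and ankle, differed by -2.54 ± 0.22 (1.9e-05). The other lower gene, *Pkhd1l1* of the surface coat, had 3 UMIs in OHC-like and 32 in IHC-like cells (adjusted p = 0.00031) and was named after its values were seen. *Cdh23* (adjusted p = 0.081) and *Ptprq* (0.76) did not pass. *Sparc* and *Sparcl1*, the 2 genes tested of the otoconial list, were both higher in organ of Corti supporting cells than in ISC/HeC/OSC-like cells, where 11.4% of all genes were. Both were lower in OHC-like cells than in these supporting cells, where 28.6% of all genes were. Elsewhere the pair split. *Sparc* was higher and *Sparcl1* lower in supporting against other cells, and the reverse held in OHC-like against IHC-like cells. Between DC/PC-like and IPhC/IB-like cells only *Sparc* was called, as higher. *Tgfbr3* of the zona pellucida list was lower in DC/PC-like than in IPhC/IB-like cells by 1.67 on the log2 scale (adjusted p = 0.0029). The mesothelin relatives and the mucins were too low to be tested in each of the 5 comparisons.

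Over 52 sums of a class in a library, the genes with the pattern most like each glycoprotein gene were ranked by Pearson's r of log2(CPM + 10) among 10556 genes. These values describe sums that share libraries, and carry no test. *Otog* and *Otogl* were each other's nearest gene (r = 0.94), followed by *Sox21* (0.92) and *Tmem79* (0.91) for *Otog*. *Strc* was nearest to *Chrna10* (0.95), a subunit of the acetylcholine receptor through which efferent fibres reach OHCs. *Tectb* was nearest to *Ppp1r17* (0.90) and *Cep41* (0.88), and *Ceacam16* to *Kcnj16* (0.84) and then to *Otog* (0.83). *Otoa* was nearest to *Rasl12* (0.84) and *Entpd8* (0.83), and *Otol1* to *Scube2* (0.89) and *Cpa6* (0.87).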

How the data were processed

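The authors made the files with Cell Ranger (version 6.0.1 and build mm10 in the submitters' notes, 5.0.1 in the file headers). They deposited UMI counts per gene and barcode, 1 count matrix per library, not normalized. The lowest barcode of each library held 500 UMIs, and what cell calling came before is not known from the counts. Cells with 200 to 6000 genes and at most 15% mitochondrial UMIs were kept. The study's methods state the same lower and mitochondrial limits but at most 3000 genes and 15000 UMIs, which was run as an alternative. Cells were clustered by age with Seurat 5.3.0 (R 4.3.3), using 2000 variable genes without the 45 listed genes, 30 principal components and resolution 1, with the P28 libraries integrated. A name needed 3 markers of 1 of 23 types. Of the 18 and 31 clusters of P14 and P28, 16 and 29 were named. Doublets were scored with Scrublet in scanpy 1.11.5, which marked 3, 0 and 1 cells, so no doublet was removed except in an alternative that took out the highest 8% of scores.

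UMI counts were summed per class and library, at least 5 cells a side, and tested with edgeR 4.0.16 (TMM, its own filter on low counts, quasi-likelihood, Benjamini-Hochberg threshold 0.05) with the library as a block, because both sides of each comparison come from the same libraries; deviations of the sides within a library correlated at 0.231 to 0.548. The SE given for an edgeR log2 fold change is its size divided by the square root of the F value of the test. It was worked back from the test and not taken from the model. DESeq2 1.42.0 was an alternative. Intervals are exact 95% Poisson or binomial ones and cover counting error only, as do limits from 0 or 3 counts. Python 3.11.15 with scipy 1.17.1 was used. The text names all 8 genes, up to 4 genes of a related list with the lowest adjusted p in a comparison, up to 3 genes of like pattern and the leading genes of a cluster. The genes and the lists were chosen with earlier results of these data known. GENCODE M21 held 32158 of the 32285 gene identifiers.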

Additional observations from a re-analysis of the deposited data

Results flagged for a closer look

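The barcodes that failed the cell filter, which no comparison above uses, also held UMIs of the 8 genes. Over the 3 libraries together they held 21764 UMIs of *Ceacam16*, 2840 of *Otog*, 2002 of *Otogl*, 1372 of *Strc*, 1120 of *Otoa*, 806 of *Tectb*, 224 of *Otol1* and 8 of *Tecta*. *Ceacam16* stood at 202, 761 and 909 CPM in the barcodes that failed (P14, P28 replicate 1 and P28 replicate 2) and at 217, 460 and 510 CPM in the kept cells. *Otoa* stood at 7.80, 36.1 and 49.6 CPM in the barcodes that failed and at 18.4, 22.2 and 27.2 CPM in the kept cells. Both genes were thus the higher in the failed barcodes of both P28 libraries and the lower in those of P14. *Strc* stood at 48.3, 66.9 and 36.1 CPM in the barcodes that failed and at 101.05, 53.9 and 31.1 CPM in the kept cells, again the lower at P14. Most of these barcodes were over the limit of 15% mitochondrial UMIs, and the part of that share in these values was not tested.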

How the results depend on the processing

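Values below are counts of genes called at an adjusted p under 0.05 unless named otherwise. Where leaving out 1 library gives a range, its lowest value is without P28 replicate 1 and its highest without P14. Against the 3226 genes called between OHC-like and IHC-like cells, DESeq2 called 2033, a minimum of 10 UMIs in every sum 1678, no replicate block 1722, limits of 3000 genes and 15000 UMIs 891 and thinning to 1000 UMIs 867, and leaving out 1 library gave 1512 to 4920. Against 5486 between OHC-like and DC/PC-like plus IPhC/IB-like cells, the minimum gave 2954 and thinning 2675, and leaving out 1 library gave 3430 to 6919. Against 1422 between DC/PC-like and IPhC/IB-like cells, DESeq2 called 310, the minimum 751, the lower limits 927 and thinning 318. Against 2195 between these classes together and ISC/HeC/OSC-like cells, DESeq2 called 1025, the minimum 1365, no replicate block 878 and thinning 762, and leaving out 1 library gave 1108 to 3873. Against 4463 for supporting cells against other cells, the minimum gave 2449, no replicate block 2735 and thinning 2954, and leaving out 1 library gave 905 to 9464.

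Of the glycoprotein genes, the minimum of 10 UMIs left 3, 4 and 3 called in the first 3 of these comparisons, the lower limits left 3 in the first, thinning left 2 in the third and no replicate block left 3 in the fourth. Under the minimum and the lower limits 3 or 4 were tested in these comparisons, and the cause of the other losses was not tested. Between OHC-like and IHC-like cells 4 were called with no replicate block, the calls lost without it are those given above, and it changed no other call of these genes. Of the fold changes of these genes, 395 alternative values kept direction and call, 13 lost the call and 3 gained it. Leaving out clusters that look like nuclei, also chosen after seeing the data, changed no call of these genes. *Tectb* between OHC-like and IHC-like cells, not called, moved from -0.44 to 0.19 (log2) as 1 library was left out, the latter without P28 replicate 2. *Otoa* in supporting against other cells was 0.071 with up to 30% mitochondrial UMIs and 0.47 without the unnamed clusters, an alternative chosen after seeing the data. Of the values by age, 62 alternative values moved by less than the spread, 46 moved by more with the same direction and 5 reversed. The spread here is the SD of the log2 differences of the 2 P28 libraries from P14. Of the 62, 14 came from leaving out P28 replicate 1 and 15 from leaving out P28 replicate 2. Such a value can hardly move by more than this spread, so these say little about stability. *Otogl* in DC/PC-like cells was -0.032 (log2, P28 minus P14) when thinned, and in ISC/HeC/OSC-like cells it was -0.57 when thinned, -2.14 with up to 30% mitochondrial UMIs and -0.045 to 0.15 with 1 P28 library left out. *Otog* in ISC/HeC/OSC-like cells was -1.27 with up to 30% mitochondrial UMIs. The cause of these reversals was not tested. DC/PC-like against IPhC/IB-like cells was not run with 1 library left out, since 2 libraries held both classes. Low counts limit what can be said of *Tecta* throughout, *Otol1* at P28, and *Strc* outside OHC-like cells. The part of depth in these low counts was not tested.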
